A study of Mus musculus with 15 samples.

Results

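The comparison described here sets mouse embryonic stem cells (ESC) that lack Hmga1 but carry an inserted Hmga2 cDNA, the Hmga2 add-back, against the wild-type (WT) line. It uses 5 of the 15 RNA-seq samples of the series, the Hmga2 add-back a and b and WT a, b and c, and describes the 13912 genes, of 21662 counted, whose counts averaged 10 or more over the samples fitted. The series asked what Hmga1 and Hmga2 proteins bind in the genome and whether transcription depends on them. The WT line is the parental ESC line of mixed 129Sv and C57Bl/6 background, which stably expresses the biotin ligase BirA, so that all groups share it. Hmga1 KO is a line derived from it with a frameshift that Cas9 introduced in Hmga1. The Hmga2 add-back is this KO line with a biotin-tagged Hmga2 cDNA under the ubiquitous CAG promoter, placed at 1 defined genomic site by Cre, and thus without intact Hmga1. The Hmga1 add-back was made in the same way with Hmga1 cDNA. Each genotype is 1 cell line, so a difference between genotypes and a difference between clones cannot be told apart. The samples of a line were separate cultures harvested on different days, and p-values measure the spread between them. A letter marks a batch, whose libraries were prepared and sequenced together.

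Hmga2 is a small protein that binds the minor groove of AT-rich DNA through AT-hooks. Its gene is active in the embryo and in many tumours and nearly silent in most adult tissues, and its transcript is a classic target of the microRNA let-7. Igf2bp2, an RNA-binding protein that stabilizes transcripts and promotes their translation, is among the genes best known to depend on Hmga2.

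In the 5 samples the counts summed to between 13491195 (WT b) and 31022941 (Hmga2 add-back a), with batch b the shallowest in both groups. Levels are given as CPM, counts scaled to a common library size with TMM normalization. WT a and WT c stood apart at low counts. They had at least 1 count on 19677 and 19531 genes, while Hmga2 add-back a, with a similar total, had 17252. Of 1434 olfactory and vomeronasal receptor genes, whose products belong to sensory neurons, 897 and 831 had a count in WT a and WT c and 55 to 135 in each of the other 7 samples of the experiment. The part of this difference in the results was not tested, and the number of genes called without both libraries is given beside the main one. The Hmga1 add-back libraries, which enter the model as a further group, had 184 and 123 CPM of Hmga1 RNA where the KO had 217 and 96.1 CPM and WT 221 to 464 CPM. These are counts of RNA, to which the frameshifted gene contributes, and do not measure the protein.

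Most genes differed little between the Hmga2 add-back and WT. The median log2 fold change over these genes was -0.00266, and 90% of genes lay between -0.62 and 1.02. At an adjusted p under 0.01 and a change of at least 2-fold, 9 genes (0.0647%) were called. Of these, 5 rose in the add-back (Hmga2, Igf2bp2, Sohlh2, Tuba3a and Hydin) and 4 fell (Eif2s3y, Uty, Ddx3y and Nudt3). At an adjusted p under 0.05, 23 genes (0.165%) passed, of which 15 were higher and 8 lower. Without adjustment, 1314 genes (9.45%) were higher and 1038 (7.46%) lower at p under 0.05. The add-back samples lay above every WT sample in 2006 genes (14.4%) and below every WT sample in 1721 (12.4%). Hmga2, Eif2s3y and Uty were called under each of 20 other settings. The other 6 were not called without WT a, Hmga1 KO a, Hmga1 KO b, or either Hmga2 add-back sample, nor without WT a and WT c together. Each of these settings left 3 genes, while 107 were called without WT b. WT c is alone in its batch, so in a fit with batch as a term the fold changes rest on batches a and b. Leaving out WT a, with or without WT c, thus leaves WT b alone in the WT arm and is not a separate check. Leaving out WT b leaves WT a alone there. The spread is then taken from the other groups. Over the 20 settings the log2 fold changes of these 6 genes kept their direction, from 2.03 to 2.16 for Sohlh2, 2.37 to 2.90 for Tuba3a, 2.18 to 2.27 for Hydin, 1.43 to 1.69 for Igf2bp2, -1.24 to -1.12 for Nudt3 and -6.70 to -4.48 for Ddx3y. Nudt3 was also not called without either Hmga1 add-back sample.

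**Figure D1:**
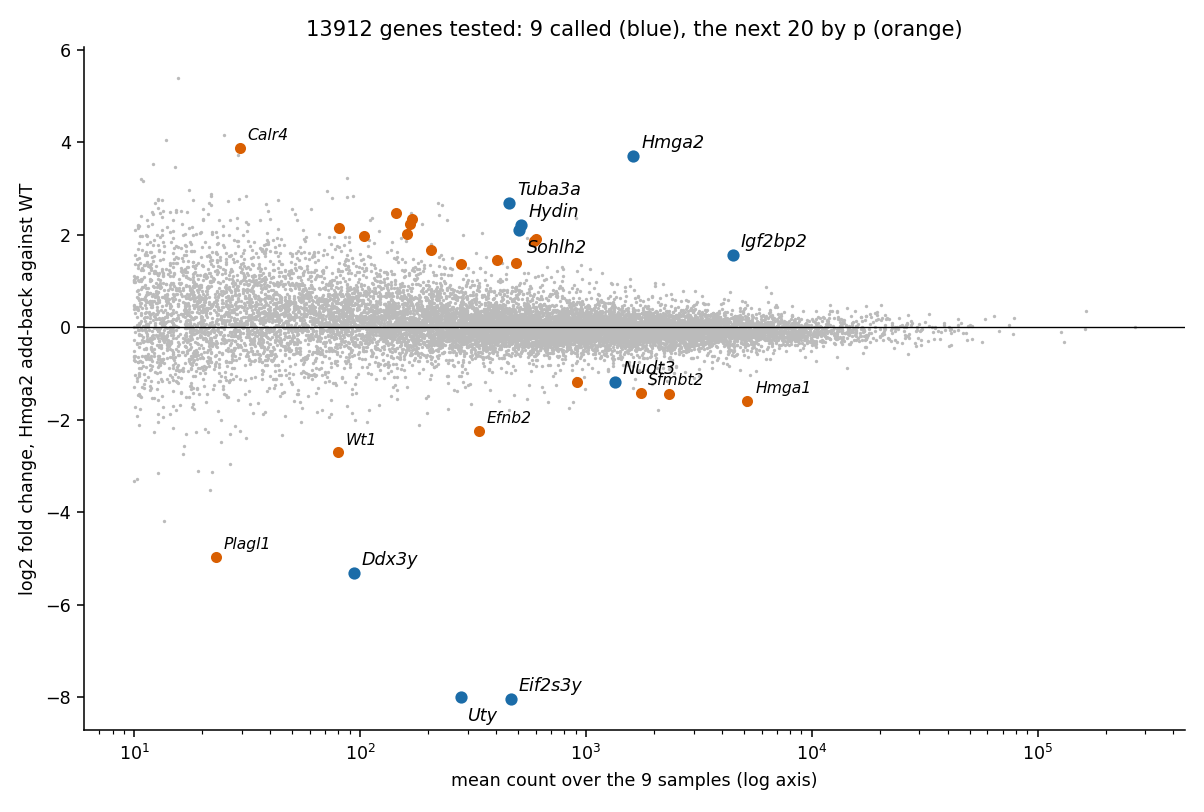
Each point is one of the 13912 genes, with its mean count over 9 samples on a log axis and its log2 fold change, Hmga2 add-back against WT, on the vertical axis. The 9 called genes (blue) reach from -8.04 (Eif2s3y) to 3.71 (Hmga2), and the next 20 genes by p with at least a 2-fold change (orange) include Hmga1 at -1.59.

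The change could be read separately in batches a and b, each with 1 add-back and 1 WT sample. Across genes the differences of both batches correlated with a Pearson's r of 0.388 and a Spearman's rho of 0.325, where genes are not independent replicates. In both batches 225 genes were at least 2-fold higher and 88 at least 2-fold lower, and 47 genes were 2-fold higher in one and 2-fold lower in the other. The 9 called genes had the same direction in both batches. They were called from these same differences, so this is not a separate test.

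**Figure D2:**
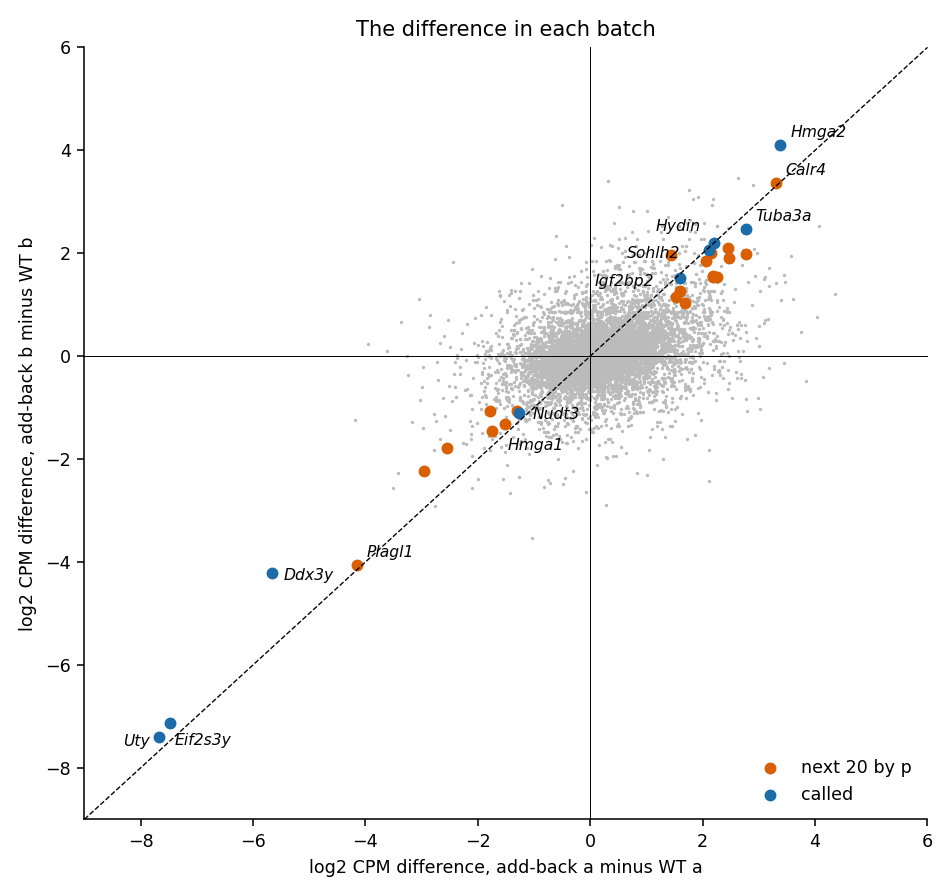
Each point is a gene, with the log2 CPM difference between add-back a and WT a on the horizontal axis and between add-back b and WT b on the vertical axis; the dashed line marks equal differences. Called genes (blue), which were chosen from these same samples, lie near this line at both ends. They run from Uty and Eif2s3y at the lower left to Hmga2 at the upper right. Most other genes form a cloud around 0.

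Hmga2 itself was the gene with the strongest rise among the called genes. It lies on chromosome 10 from 119798331 to 119913525 on the minus strand (NCBIM37, the mm9 assembly). It had 23.8, 12.8 and 15.8 CPM in WT and 249.1 and 221.9 CPM in Hmga2 add-back a and b. Both add-back samples stood far above the 3 WT samples, which had 752, 165 and 381 counts against 8409 and 3151. On the log2 scale the difference was 3.71 ± 0.20 (SE, adjusted p = 2.42e-04). In Hmga1 KO the level was 18.9 and 13.8 CPM and in the Hmga1 add-back 18.5 and 17.8, within the range of WT. Against Hmga1 KO the Hmga2 add-back showed a log2 difference of 3.86 ± 0.20 (SE, adjusted p = 5.58e-04). Per length of its annotated exons, 4276 bases, Hmga2 had a mean of 4.08 RPKM in WT and 55.1 RPKM in the add-back. The length of the inserted cDNA did not enter this value. Reads of the inserted cDNA and of the gene at its own place cannot be told apart in these counts.

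Hmga1, whose coding frame is broken in the add-back line, still gave RNA at a reduced level. The gene is on chromosome 17 from 27693565 to 27700619 on the plus strand. It had 464 CPM, 276 CPM and 221 CPM in the 3 WT samples and 138 and 101 CPM in the Hmga2 add-back. The groups did not overlap, although WT a was more than 2-fold above WT c. Its log2 fold change was -1.59 ± 0.17 (SE), and the adjusted p of 0.0122 missed the threshold of 0.01. Per length of its annotated exons, Hmga1 had a mean of 156.5 RPKM in WT and 58.4 RPKM in the add-back.

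Igf2bp2 was the gene other than Hmga2 that differed from both WT and the KO at an adjusted p under 0.05. It lies on chromosome 16 from 22059082 to 22163372. Its level was 120.2, 149.4 and 99.7 CPM in WT and 363 and 428 CPM in the Hmga2 add-back. Both add-back samples were above every WT sample, at 302% and 287% of WT in batches a and b. This made a log2 difference of 1.56 ± 0.13 (SE, adjusted p = 0.00333). Hmga1 KO had 134 CPM in both samples and the Hmga1 add-back 153 and 143 CPM, all close to WT. Against the KO, the Hmga2 add-back had a log2 difference of 1.56 ± 0.13 (SE, adjusted p = 0.0117). Its relatives Igf2bp1 and Igf2bp3 did not share the difference, with log2 fold changes of -0.44 (adjusted p = 0.224) and -0.02 (adjusted p = 0.948).

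Of 26 genes linked to Hmga2 in the literature (Hmga1 and Hmga2, the Igf2bp family, the let-7 regulators Lin28a and Lin28b, cell cycle regulators, genes of the mesenchymal transition and of insulin-like signalling), 25 were tested. Besides Hmga2 and Igf2bp2, higher, and Hmga1, lower, none passed an adjusted p of 0.05. At an unadjusted p under 0.05, 3 of the 25 were higher and 8 lower, against 9.45% and 7.46% of all genes, and the median was -0.20. Cyclin D1 (Ccnd1), which drives entry into the cell cycle, had a log2 fold change of -0.80 (adjusted p = 0.191), with 42.4% and 78.7% of WT in batches a and b. The growth regulator gene Plag1 was at 15.2, 21.4 and 12.7 CPM in WT and 29.9 and 31.0 CPM in the Hmga2 add-back (log2 fold change 0.75, adjusted p = 0.185). Its add-back samples were above all WT samples, as were those of 14.4% of all genes tested.

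**Figure D3:**
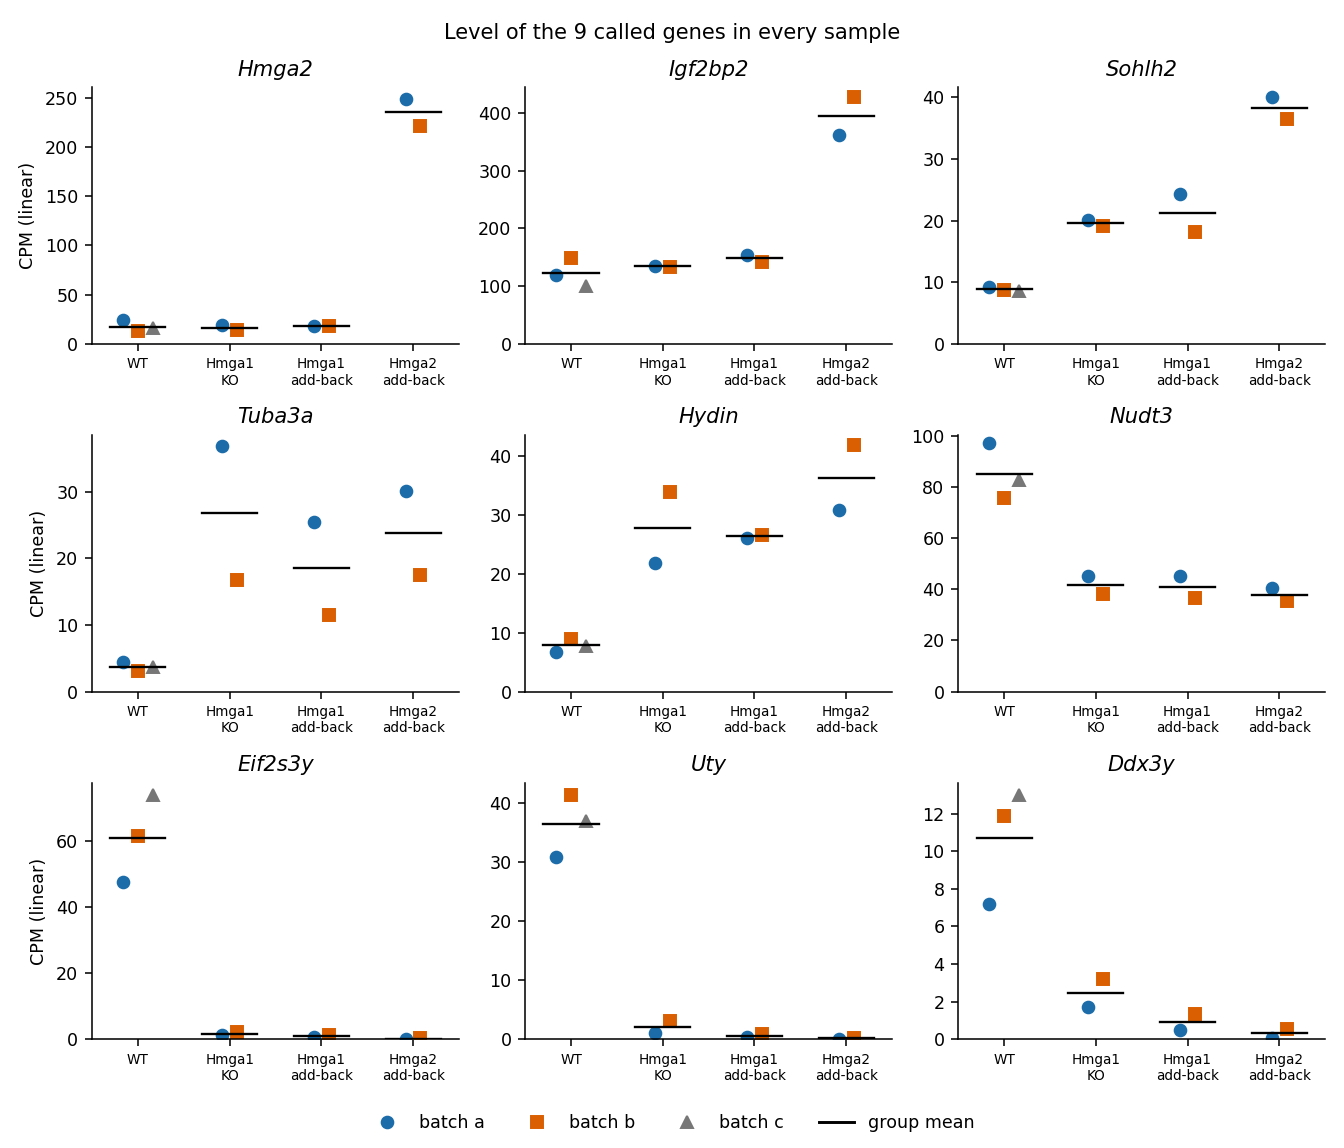
Each panel shows 1 of the 9 called genes in all 9 samples of the experiment, as CPM on a linear axis from 0, with a symbol per batch and a line at the group mean. Hmga2 and Igf2bp2 are high in the Hmga2 add-back alone (249.1 and 221.9 CPM, 363 and 428 CPM). For Sohlh2, Tuba3a, Hydin, Nudt3 and the Y-linked genes, the Hmga1 KO and Hmga1 add-back samples also lie away from WT.

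Sohlh2 is a transcription factor of early germ cells. The gene is on chromosome 3 from 54985950 to 55013879. It had 9.20, 8.69 and 8.63 CPM in WT and 40.0 and 36.5 CPM in the Hmga2 add-back. The fit gave a log2 fold change of 2.10 ± 0.16 (SE, adjusted p = 0.00235), with no overlap. Hmga1 KO (20.1 and 19.2 CPM) and the Hmga1 add-back (24.4 and 18.1 CPM) lay between the other groups. Against the KO, the Hmga2 add-back had a log2 difference of 0.97 ± 0.15 (SE, adjusted p = 0.253), which did not pass.

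Tuba3a, an alpha-tubulin found mainly in testis, was higher in all 3 lines with the Hmga1 frameshift. It lies on chromosome 6 from 125228292 to 125236060. Its levels were 4.36, 3.10 and 3.74 CPM in WT and 30.1 and 17.5 CPM in the Hmga2 add-back. Batch a was above batch b in the add-back, and both samples were above WT. On the log2 scale the difference was 2.69 ± 0.21 (SE, adjusted p = 0.00255). Hmga1 KO was at 36.8 and 16.7 CPM, and the difference between the Hmga2 add-back and the KO was -0.13 ± 0.18 (SE) on the log2 scale. The near-identical Tuba3b, with 1.11, 2.02 and 1.87 CPM in WT and 8.09 and 8.24 CPM in the add-back, had a log2 fold change of 2.47 (adjusted p = 0.0543). Reads that match both genes were placed at one of them at random, so their split is uncertain. The 4 other alpha-tubulins tested, of the abundant ubiquitous kind, lay between -0.39 (Tuba1b) and -0.21 (Tuba4a), and the list of 6 had a median of -0.27 (-0.06 without WT a).

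Of 36 germ line and meiosis genes, 27 were tested. Sohlh2, Tuba3a and Smc1b passed an adjusted p of 0.05, all higher. Smc1b, a meiotic cohesin subunit, was at 6.89, 17.5 and 12.7 CPM in WT and 31.6 and 51.2 CPM in the Hmga2 add-back, without overlap (log2 fold change 1.86 ± 0.20 SE, adjusted p = 0.0122). In the KO it was at 32.8 and 48.6 CPM, and the Hmga2 add-back differed from the KO by 0.00 ± 0.19 (SE). At an unadjusted p under 0.05, 13 of the 27 were higher and 1 lower, against 9.45% and 7.46% of all genes, and the median was 0.53 (batch a 0.57, batch b 0.65). Tuba3a and Tuba3b, which both count in the 13, share reads and are not separate observations. Among the 13 were Dazl, an RNA-binding protein of germ cells (0.96), the cohesin subunit Stag3 (0.65) and Tex15 (0.60). Tdrd1, which acts in piRNA production, was the 1 lower (-1.08). Summed over the list, the level was 462 to 584.5 CPM in WT and 829.7 to 856.6 CPM in the Hmga2 add-back. The same 27 genes had a median of 0.49 in Hmga1 KO and 0.43 in the Hmga1 add-back, both against the same WT samples.

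The upstream sequences of 3 called genes that rose in the add-back are shown because Hmga proteins bind AT-rich DNA. In the study, longer stretches of A or T did not appear to be bound more than AT content predicts. Hmga2 and Hydin, which rose too, are not shown. Each sequence is the 250 bases before the RefSeq start (build GRCm38.p6), 5′ to 3′ on the strand of the gene. Runs of at least 5 bases of A or T are in capitals. Igf2bp2 is at chr16:22163300-22163549 (minus strand), Sohlh2 at chr3:55181794-55182043 (plus strand) and Tuba3a at chr6:125286082-125286331 (minus strand).
Igf2bp2: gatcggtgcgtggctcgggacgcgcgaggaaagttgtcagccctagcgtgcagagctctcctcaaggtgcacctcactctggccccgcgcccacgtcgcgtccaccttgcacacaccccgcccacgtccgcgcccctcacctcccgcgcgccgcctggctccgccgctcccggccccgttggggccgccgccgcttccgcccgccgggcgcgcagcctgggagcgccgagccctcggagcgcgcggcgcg
Sohlh2: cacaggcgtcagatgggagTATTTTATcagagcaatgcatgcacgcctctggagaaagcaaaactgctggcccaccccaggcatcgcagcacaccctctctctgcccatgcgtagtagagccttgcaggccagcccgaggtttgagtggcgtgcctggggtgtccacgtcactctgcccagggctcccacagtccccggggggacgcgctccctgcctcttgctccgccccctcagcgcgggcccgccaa
Tuba3a: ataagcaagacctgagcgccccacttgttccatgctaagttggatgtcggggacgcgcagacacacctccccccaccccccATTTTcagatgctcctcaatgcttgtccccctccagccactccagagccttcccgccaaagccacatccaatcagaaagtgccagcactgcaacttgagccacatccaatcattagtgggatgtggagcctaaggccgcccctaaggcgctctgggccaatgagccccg
None of them was rich in A and T. Igf2bp2 had 22.8% A or T, no such run and 40 CG pairs, Sohlh2 had 35.2%, 1 run of 8 bases and 14 CG pairs, and Tuba3a had 41.6%, 1 run of 5 bases and 8 CG pairs. Over 32841 RefSeq promoters of the same length, the median was 47.6% A or T and 6 CG pairs, and 82.2% held at least 1 such run. Only 2.35% of the promoters had less A or T than that of Igf2bp2. These counts describe letters and say nothing of binding.

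Hydin, a very long gene for a protein of the central apparatus of motile cilia, rose in the Hmga2 add-back. The gene is on chromosome 8 from 112790877 to 113134153. It had 6.64, 9.0 and 7.80 CPM in WT and 30.8 and 41.8 CPM in the add-back, which did not overlap. This made a log2 difference of 2.21 ± 0.18 (SE, adjusted p = 0.00290). The KO (21.8 and 33.8 CPM) and the Hmga1 add-back (26.1 and 26.5 CPM) were high as well, and against the KO the value was 0.40 ± 0.17 (SE, adjusted p = 0.877). Per length, Hydin was low throughout, with a mean of 0.441 RPKM in WT and 2.04 RPKM in the add-back. Of the 27 genes listed for the axoneme and motile cilia, 19 were tested, and Hydin alone passed an adjusted p of 0.05. At an unadjusted p, 4 of the 19 were higher and 3 lower, against 9.45% and 7.46% of all genes, with a median of 0.40 (0.23 without WT a). The dynein gene Dnah6 was at 2.33 (adjusted p = 0.0944), while Foxj1, the master regulator of motile cilia, was at 0.40 (adjusted p = 0.600).

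Nudt3, a hydrolase of inositol pyrophosphates, was the 1 called gene on the lower side that is not on the Y chromosome. It lies on chromosome 17 from 27716327 to 27760410, 15.7 kb beyond the end of Hmga1 and on the opposite strand. It had 97.2, 75.8 and 82.8 CPM in WT and 40.4 and 35.3 CPM in the Hmga2 add-back. All add-back values were about 2-fold below the WT range, at 41.5% and 46.6% of WT in batches a and b. The fit gave a log2 fold change of -1.19 ± 0.11 (SE, adjusted p = 0.00639). Hmga1 KO (45.2 and 38.1 CPM) and the Hmga1 add-back (45.3 and 36.7 CPM) were at the same level, and the Hmga2 add-back differed from the KO by -0.14 ± 0.11 (SE).

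Within 500 kb of Hmga1, 15 other genes are annotated and 13 were tested. Nudt3 was the only one with an adjusted p under 0.05, and the median of the 13 was 0.11 (0.06 without WT a). AI413582, which overlaps the end of Hmga1 on the opposite strand and was singled out after its values were seen, had 2.72, 2.56 and 1.74 CPM in WT and 0.622 and 0.422 CPM in the Hmga2 add-back (log2 fold change -2.31, adjusted p = 0.0713). Reads were counted by strand in strand-specific libraries. Rps10, the next gene tested beyond Nudt3 at 66.8 kb, was at 0.20 (adjusted p = 0.467). Pacsin1, a membrane-shaping protein gene 91.8 kb away and also chosen after its values were seen, had 4.90, 7.60 and 7.06 CPM in WT and 16.4 and 13.5 CPM in the Hmga2 add-back (log2 fold change 1.28 ± 0.33 SE, adjusted p = 0.150), with 1.57 in Hmga1 KO and 1.41 in the Hmga1 add-back against the same WT samples. Around Hmga2, 7 of 8 genes were tested, none passed, and their median was -0.19 (-0.05 without WT a). Irak3, an inhibitor of innate signalling 159 kb away, was at 13.3, 7.37 and 13.6 CPM in WT and 4.62 and 5.07 CPM in the add-back (log2 fold change -1.06, adjusted p = 0.182).

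**Figure D4:**
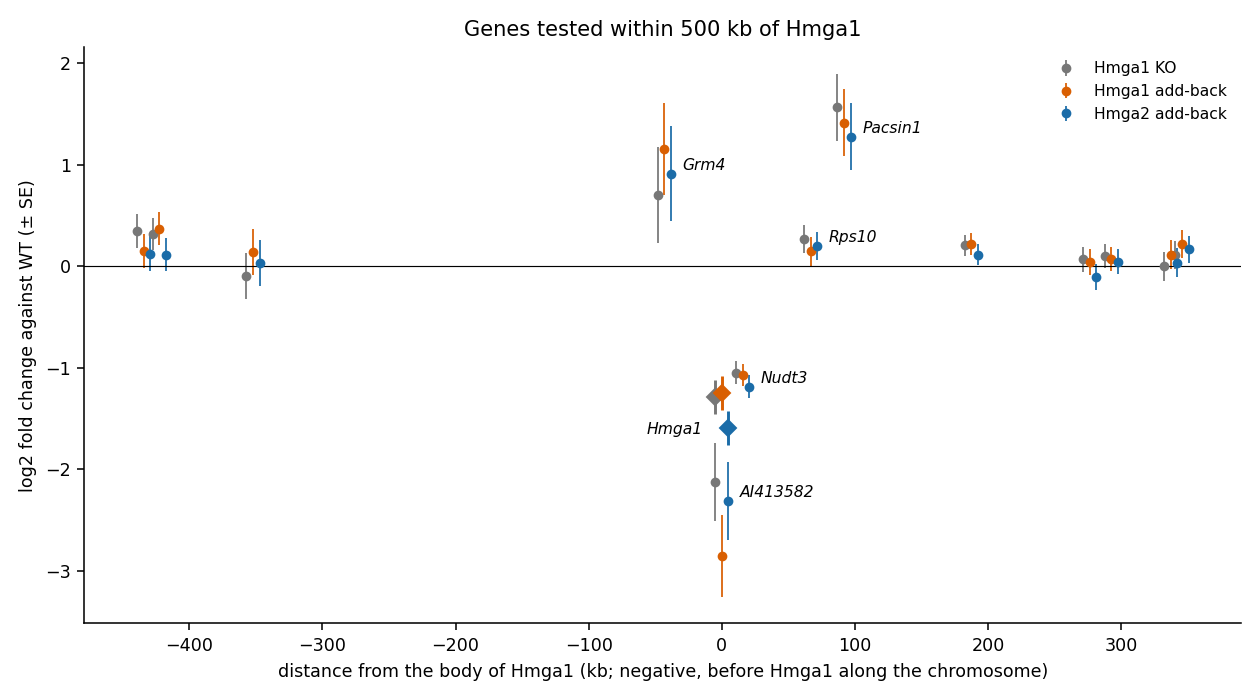
The log2 fold change against WT, with its standard error as a bar, of Hmga1 (diamonds) and the 13 genes tested within 500 kb, by distance from the body of Hmga1 in kb; the 3 lines are drawn side by side at each gene and share their WT samples. Hmga1, Nudt3 and AI413582 lie below 0 in the 3 lines, the Hmga2 add-back at -1.59, -1.19 and -2.31, while most genes farther away lie near 0.

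The largest decreases were those of Y-linked genes. Eif2s3y, a translation initiation factor subunit, had 47.6, 61.6 and 73.9 CPM in WT and 0.148 and 0.282 CPM in the Hmga2 add-back. Uty, a histone demethylase relative, had 30.9, 41.4 and 37.0 CPM in WT and 0.0889 and 0.211 CPM in the add-back. Ddx3y, an RNA helicase, had 7.18, 11.9 and 13 CPM in WT and 0.0592 and 0.563 CPM in the add-back. None of the 3 genes overlapped between groups, where 12.4% of all genes had their add-back samples below every WT sample. The log2 fold changes were -8.04, -8.00 and -5.31 (adjusted p = 1.58e-05, 1.59e-04 and 0.00497). In raw counts over batches a and b, Eif2s3y had 9 counts in the add-back and 2299 in WT, or 0.363% of WT after scaling (exact 95% counting interval 0.166% to 0.691%, which covers counting error only). Uty had 6 and 1509 counts, 0.369% of WT (0.135% to 0.805%), and Ddx3y had 10 and 380, 2.44% of WT (1.16% to 4.54%). Of the 10 genes of this list 4 were tested, and Uba1y, with 26, 13 and 28 counts in WT and 0 and 2 in the add-back, was lower at an unadjusted p (log2 fold change -4.19, adjusted p = 0.126). The list summed to between 87.0 and 126.8 CPM in WT, 5.08 and 9.20 CPM in Hmga1 KO, 1.95 and 4.57 CPM in the Hmga1 add-back and 0.385 and 1.41 CPM in the Hmga2 add-back. In bulk RNA, fewer cells that carry the chromosome and less RNA per cell cannot be told apart. Of the 7 X-linked paralogs tested, Ddx3x (-0.42) and Kdm6a (-0.35) were lower at an unadjusted p, against 7.46% of all genes. None of the 7 passed adjustment, and their median was -0.19 (-0.08 without WT a).

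The next 20 genes by p with at least a 2-fold change had adjusted p between 0.0122 and 0.0543, with 13 higher and 7 lower. Apart from Hmga1 and Smc1b, the ones under 0.05 on the higher side were Arhgap30 (1.90), Slc11a1, a metal transporter of phagosomes (2.01), Fmr1nb, a testis antigen (1.45), Calml4 (2.24), Calr4, a calreticulin relative (3.87), the glutamate transporter Slc1a1 (1.97) and C330024D21Rik (2.14). Against the same WT samples, these 7 genes lay between 0.76 and 3.14 in Hmga1 KO and between 1.29 and 2.99 in the Hmga1 add-back. On the lower side were Sfmbt2 (-1.42), Plagl1 (-4.97) and Ttn (-1.44). Those with an adjusted p above 0.05 were Efnb2 (-2.24), Wt1 (-2.70), Wfdc2 (1.37), Usp26 (2.34), Nxt2 (1.39), Ina (-1.19), Tuba3b and Xaf1 (1.66). With the 9 called genes these make 29. All were picked by p and fold change from these same samples, so separation of the add-back from WT follows from that choice. The groups overlapped in 1, Ttn, the titin gene. Its batch b was high in both groups (98.3, 290.3 and 99.5 CPM in WT, 28.6 and 137.9 CPM in the add-back).

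Some of the 20 are known for their roles in early development. Sfmbt2 encodes a Polycomb group protein and is imprinted in the placenta. It had 94.4, 114.1 and 79.9 CPM in WT, 107.3 and 101.8 CPM in Hmga1 KO, 44.6 and 63.4 CPM in the Hmga1 add-back and 32.8 and 45.7 CPM in the Hmga2 add-back. The KO was thus at the level of WT, and both add-backs were below it. The Hmga2 add-back differed from WT by -1.42 ± 0.16 (SE, adjusted p = 0.0125) and from the KO by -1.44 (adjusted p = 0.0555). Efnb2, a ligand of Eph receptors, was at 32.2, 22.2 and 30 CPM in WT and 5.42 and 6.34 CPM in the Hmga2 add-back (adjusted p = 0.0508). Wt1, a transcription factor of kidney and gonad, was at 8.35, 7.91 and 5.19 CPM in WT and 1.01 and 1.62 CPM in the add-back (adjusted p = 0.0508). Both were also low in the KO, with 8.36 and 9.05 CPM for Efnb2 and 2.02 and 1.98 CPM for Wt1. Xaf1, a promoter of apoptosis, was at 5.82, 3.72 and 5.44 CPM in WT, 5.95 and 7.53 CPM in the KO and 15.9 and 14.8 CPM in the Hmga2 add-back (adjusted p = 0.0543).

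Plagl1, an imprinted zinc finger gene, was among the genes near absence in the add-back. It had 95, 32 and 50 counts in WT and 3 and 1 in the Hmga2 add-back, which gives 2.92% of WT over batches a and b (exact 95% counting interval 0.784% to 7.67%). Hmga1 KO had 14 and 6 counts and the Hmga1 add-back 2 and 3. Calr4 showed the opposite pattern, with 5, 2 and 11 counts in WT and 78 and 34 in the add-back. Of 26 imprinted genes, 22 were tested, and Plagl1 alone passed an adjusted p of 0.05 (adjusted p = 0.0176). At an unadjusted p, 2 of the 22 were higher and 8 lower, against 9.45% and 7.46% of all genes, with a median of -0.22 (-0.46 without Hmga2 add-back a). Among the 8 were Cdkn1c, a cell cycle inhibitor (-1.33), Mest (-1.15) and Grb10, a brake on growth signalling (-0.95). Rian, a non-coding RNA of the Dlk1-Meg3 cluster, was at 0.411, 0.388 and 0.540 CPM in WT, 1.40 and 5.24 CPM in Hmga1 KO and 0.0296 and 0.0704 CPM in the Hmga2 add-back (log2 fold change -3.12 against WT, adjusted p = 0.180). Meg3 of the same cluster had 0.538, 0.155 and 1.16 CPM in WT and 0.0592 and 0 CPM in the add-back (log2 fold change -3.16, adjusted p = 0.303).

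**Figure D5:**
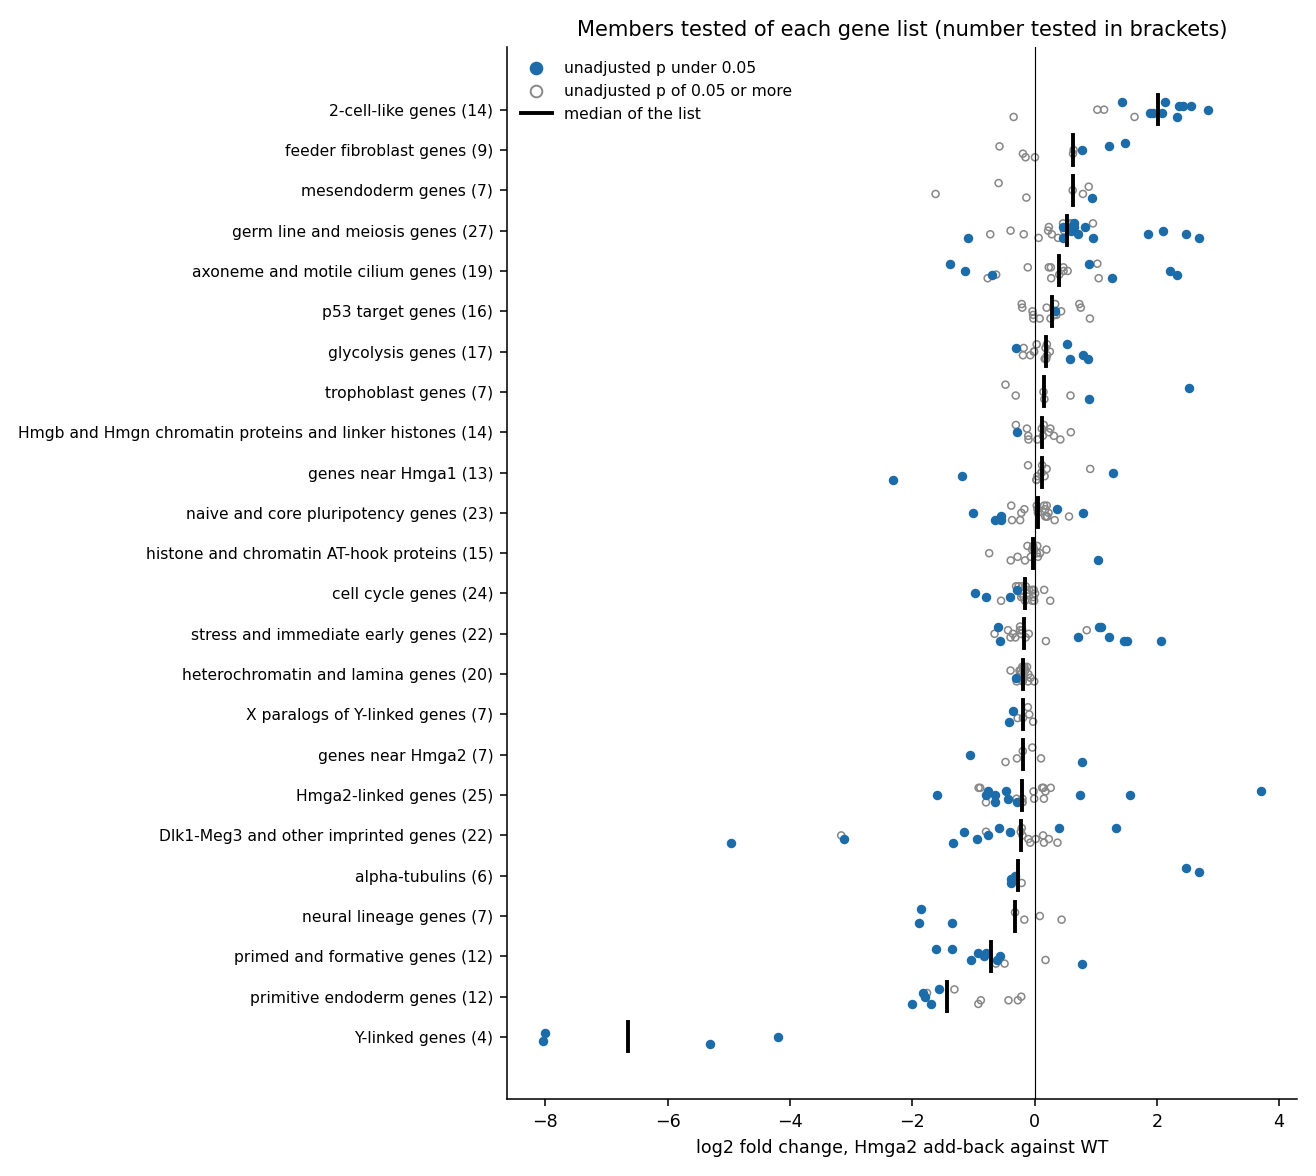
Each row is a gene list, each point a tested member at its log2 fold change, Hmga2 add-back against WT, filled where the unadjusted p is under 0.05, and the bar is the median. The medians run from -6.65 (Y-linked genes) and -1.44 (primitive endoderm genes) to 2.01 (2-cell-like genes), while naive and core pluripotency genes sit at 0.06.

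None of the pluripotency genes passed the test. All 23 naive and core pluripotency genes were tested, with no adjusted p under 0.05, and their median was 0.06. Pou5f1, the core factor also called Oct4, had 906, 913 and 1047 CPM in WT and 668 and 976 CPM in the Hmga2 add-back (log2 fold change -0.17, adjusted p = 0.597). Sox2 was at 0.21 and Nanog at 0.20. At an unadjusted p under 0.05, 2 of the 23 were higher and 4 lower, against 9.45% and 7.46% of all genes. Tbx3 (0.79) and Utf1 (-0.55) had the smallest p. The summed level of the 23 lay between 9971 and 10820 CPM in WT and 8869 and 11090 CPM in the add-back.

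Primed and formative genes, which mark the step after naive pluripotency, lay mostly below 0, and no member passed adjustment. Of 12 tested, 8 were lower and 1 higher at an unadjusted p under 0.05, against 7.46% and 9.45% of all genes. The median was -0.71 (batch a -0.93, batch b -0.46), and -0.26 in Hmga1 KO and -0.59 in the Hmga1 add-back, each against the same WT samples. Dnmt3a, a de novo DNA methyltransferase, was at 325, 283 and 356 CPM in WT and 115.1 and 190.1 CPM in the add-back (log2 fold change -1.03 ± 0.21 SE, adjusted p = 0.106). Dnmt3b was at 230.2, 252 and 223 CPM in WT and 107.5 and 173 CPM in the add-back (log2 fold change -0.83 ± 0.20 SE, adjusted p = 0.138). In both genes the add-back samples were below every WT sample, as were those of 12.4% of all genes tested, and batch a held the lower add-back value. Of 7 neural lineage genes tested, 3 were lower at an unadjusted p, against 7.46% of all genes, with a median of -0.32 (-0.12 without Hmga2 add-back a). Cdh2, N-cadherin, was at 6.48, 5.51 and 6.68 CPM in WT and 1.69 and 1.55 CPM in the add-back (log2 fold change -1.88, adjusted p = 0.0683), and Pax6, a neural transcription factor, was at -1.85 (adjusted p = 0.116).

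Primitive endoderm genes, of the extraembryonic lineage that ESC cultures also produce in small numbers, were the list farthest below 0 after the Y-linked genes. All 12 were tested, none passed adjustment, and 5 were lower at an unadjusted p, against 7.46% of all genes. The median was -1.44 (batch a -1.46, batch b -0.94), but 0.10 without WT a and -2.29 without Hmga2 add-back a. Sox7 was at 11.2, 3.41 and 6.31 CPM in WT and 1.98 and 1.83 CPM in the add-back (log2 fold change -2.01, adjusted p = 0.218), and Gata4 was at 13.2, 6.28 and 8.26 CPM in WT and 4.29 and 2.18 CPM in the add-back (log2 fold change -1.56, adjusted p = 0.206). WT a was the highest WT sample in both. The list summed to between 853 and 1166 CPM in WT and 660.3 and 794 CPM in the add-back, and its median was -1.86 in Hmga1 KO and -0.80 in the Hmga1 add-back.

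Genes of 2-cell-like cells, a rare state in which ESC express genes of the early embryo, lay mostly above 0. Of 20 listed, 14 were tested, 10 were higher at an unadjusted p and none lower, against 9.45% and 7.46% of all genes, and none passed adjustment. The median was 2.01 (batch a 2.00, batch b 1.55), and 1.30 without WT a, while the summed level of the list was 405 to 493 CPM in WT and 299.5 to 484 CPM in the add-back. Most of this sum was Eif1a, a translation factor gene singled out after its values were seen, with a mean of 444 CPM in WT and 360 CPM in the add-back (log2 fold change -0.34). Zscan4e was at 0.190, 0.621 and 0.374 CPM in WT, 11.0 and 4.94 CPM in Hmga1 KO, 5.74 and 3.90 CPM in the Hmga1 add-back and 1.98 and 2.89 CPM in the Hmga2 add-back. The Hmga2 add-back was above WT (log2 fold change 2.84 ± 0.66 SE, adjusted p = 0.126) and had the lowest values of the 3 lines with the Hmga1 frameshift. Usp17lc had a log2 fold change of 2.09 (adjusted p = 0.132). Zscan4 and Usp17l genes are near-identical copies that share reads, so they are not separate observations. The list's median was 3.55 in Hmga1 KO and 3.07 in the Hmga1 add-back, each against the same WT samples, and -1.53 for the Hmga2 add-back against the KO.

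Markers of other cells were low. Feeder fibroblast genes, which mark the cells on which ESC can be grown, summed to between 18.5 and 25.1 CPM in WT and 27.1 and 38.9 CPM in the Hmga2 add-back. Of 17 listed 9 were tested, 3 were higher at an unadjusted p, against 9.45% of all genes, none passed adjustment, and the median was 0.63 (0.39 without WT a). Thy1, a surface marker of fibroblasts, was at 6.01, 2.64 and 3.36 CPM in WT and 11.7 and 8.24 CPM in the add-back (log2 fold change 1.22, adjusted p = 0.141), and Col5a1 was at 0.78. Mesendoderm genes, 14 listed and 7 tested, summed to between 70.3 and 119.9 CPM in WT and 100.3 and 194.1 CPM in the add-back. Eomes was higher at an unadjusted p (0.94, adjusted p = 0.182), against 9.45% of all genes. Lefty2 was at 0.89, a difference of batch a (460% of WT there and 87.5% in batch b). The median of the list was 0.62, which was -0.01 without WT a. Trophoblast genes, 11 listed and 7 tested, summed to between 31.9 and 38.55 CPM in WT and 27.7 and 46.4 CPM in the add-back. Krt7 (2.53) and Ascl2 (0.90) were higher at an unadjusted p, against 9.45% of all genes. Krt7 had 5, 2 and 8 counts in WT and 47 and 4 in the add-back. Its difference was mostly that of batch a, and in CPM add-back b lay within the WT range. The median of the list was 0.16 (0.69 without WT a). Up to 6 of the 17 feeder genes had 0 counts in a WT sample and up to 5 in an add-back sample. Their part in the results was not tested.

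Lists on chromatin and cell growth had medians between -0.18 and 0.29, and none of their members passed an adjusted p of 0.05. Their counts at an unadjusted p under 0.05 stand beside 9.45% of all genes higher and 7.46% lower. For high mobility group proteins with linker histones, and for heterochromatin and lamina genes, 0 were higher and 1 lower. For AT-hook proteins and for p53 targets, 1 was higher and 0 lower. The other high mobility group proteins and linker histones had a median of 0.13 (-0.000303 without WT a) over 14 genes, with Hmgb1 at -0.28 and the linker histone gene H1f0 at 0.42. Proteins with AT-hooks had a median of -0.02 (-0.07 without WT a) over 15 genes, with Elf3 at 1.03 and Smarca2, a remodelling ATPase, at -0.74. All 20 heterochromatin and lamina genes were between -0.39 and -0.01, and Banf1 (-0.30) and Ehmt1 (-0.22) had the smallest p. The median of the list was -0.18 (batch a -0.31, batch b -0.09, and -0.09 without WT a), where that of all genes was -0.00266. The 24 cell cycle genes had a median of -0.15, with 4 lower at an unadjusted p, among them the D cyclins Ccnd1 (-0.80) and Ccnd2 (-0.98). Both differed more in batch a than in batch b. Ccnd1 was at 42.4% and 78.7% of WT in batches a and b, and Ccnd2, whose groups overlapped, at 31.5% and 82.6%. The 16 p53 target genes had a median of 0.29 (batch a 0.68, batch b -0.19, and -0.10 without WT a). Sesn1 (0.34) and Cdkn1a (0.91) had the smallest p. Cdkn1a, the p21 cell cycle inhibitor, was at 12.7, 9.47 and 6.10 CPM in WT and 41.0 and 9.08 CPM in the add-back, so that its difference was that of batch a. Of 17 glycolysis genes 4 were higher and 1 lower at an unadjusted p, with a median of 0.18, and the phosphofructokinase genes Pfkp (0.88) and Pfkl (0.53) had the smallest p. Of 22 stress and immediate early genes 7 were higher and 2 lower at an unadjusted p, with a median of -0.17 (0.14 without WT a), and Ier3 (1.46) and Jun (1.22) had the smallest p.

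No chromosome other than Y stood out. The medians of the autosomes and X lay between -0.04 (chromosome 3, 624 genes) and 0.03 (chromosome 17, 691 genes), and that of 4 Y-linked genes was -6.65. Since Hmga proteins bind AT-rich DNA, genes were also set in 5 equal bins by the AT content of the gene body, for the 13510 genes with a position, 2702 in each bin. From the bin with the least AT (26.3% to 48.2%) to the one with the most (58.4% to 67.8%), the median log2 fold change was 0.04, 0.05, -0.01, -0.02 and -0.04. When only genes averaging 50 or more counts were kept, it was -0.01, 0.01, -0.03, -0.03 and -0.04. Against the same WT samples, the first and last bins had medians of 0.01 and -0.06 in Hmga1 KO and 0.05 and -0.07 in the Hmga1 add-back. Within batch a the first and last bins had medians of 0.08 and -0.06, and within batch b both had -0.02. Across genes, the log2 fold change and the AT content correlated with a Pearson's r of -0.109 and a Spearman's rho of -0.103, and in the batch b differences with an r of -0.0346 and a rho of -0.0155. These genes come from the same 5 libraries.

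Against Hmga1 KO, the line it was made from, the Hmga2 add-back differed in 1 called gene of 13912 (0.00719%), Hmga2, with 708 genes at an unadjusted p under 0.05. Igf2bp2 passed at an adjusted p under 0.05, and Sfmbt2 was next among the called genes and the 20 after them (adjusted p = 0.0555). Eif2s3y had a log2 difference of -2.95 ± 0.36 (SE, adjusted p = 0.101) and Uty of -3.67 ± 0.49 (SE, adjusted p = 0.134) against the KO. For Nudt3, Tuba3a and Hydin the values were -0.14, -0.13 and 0.40.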

How the data were processed

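Per the labels and the methods of the study, total RNA depleted of ribosomal RNA was used for strand-specific libraries. The authors aligned reads to mm9 with Bowtie, placed a read with several equal alignments at 1 of them at random and deposited raw counts of same-strand reads per UCSC known gene. The submitters' processing notes also name bcl2fastq 2.17. The 6 count columns of another experiment were not used here.

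A gene entered the analysis if its counts averaged 10 or more over the 9 samples of the experiment (WT 3, Hmga1 KO 2, Hmga1 add-back 2, Hmga2 add-back 2). The 9 samples were fitted together in edgeR 4.0.16 (R 4.3.3), with TMM normalization, group and batch letter as terms and the quasi-likelihood test. P-values were adjusted by Benjamini and Hochberg over all genes tested. Calls needed an adjusted p under 0.01 and a change of at least 2-fold. Standard errors are the log2 fold change divided by the square root of F. RPKM divides CPM by the exon length given with the counts. Batch differences are of log2 CPM with a prior count of 2. Batch is stated by the study. The a minus b differences of WT correlated across genes with those of the Hmga2 add-back (r = 0.339) and of the KO (r = 0.427). WT c is alone in its batch, so the fold changes rest on batches a and b.

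Positions are from GENCODE vM1 (20845 of 21662 genes matched). Promoters are from RefSeq (GRCm38.p6). Genes named are Hmga1, Hmga2, Igf2bp2, Sohlh2, the called genes, the next 20 by p with at least a 2-fold change, and in each list the members with an adjusted p under 0.05 (at most 4) or else the 2 smallest p. Other genes were named after their values were seen. The comparison, the lists and the rule were chosen with earlier results of these data known. In data simulated from these samples for the comparison with WT, over 13912 genes, changes were given only to genes with an expected mean count of at least 100. The fit recovered 93 of 100 genes given a log2 change of 1.5 and 99 of 100 given 2, with 5 unchanged genes called. Recovery of genes with lower counts was not tested. Alternatives used DESeq2 1.42.0 and limma 3.58.1, other scalings, filters and thresholds, and left out each sample. Plots were drawn with matplotlib in python.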

Additional observations from a re-analysis of the deposited data

How the results depend on the processing

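Of the counts of called genes, that against WT was 9 and that against the KO 1 under DESeq2 size factors, summed counts, a mean count of at least 50 and no minimum fold change, with Hmga1 in place of Nudt3 under summed counts. Against WT, limma-trend also called 9, no filter on low counts 22, the Wald test of DESeq2 107, the fit of only the groups compared 123 and an adjusted p under 0.05 21. Without the batch letter (no replicate block) 4 genes were called against WT, Eif2s3y, Hmga2, Sohlh2 and Uty, and 1 against the KO. Leaving out 1 sample at a time gave between 3 and 107 genes against WT, and leaving out WT a and WT c together, chosen after seeing the data, gave 3. Without WT a, with or without WT c, the WT side of the comparison rests on WT b. Where 1 sample is left in an arm, it is assumed to vary like the other groups. Against the KO, no filter called 3, the Wald test 10, and limma-trend, only the groups compared, an adjusted p under 0.05 and leaving out WT a and WT c each called 2. Leaving out 1 sample at a time gave between 0 and 2 there, with edgeR calling 0 without Hmga1 KO a or b (with 109 and 922 at p under 0.05 before adjustment). The causes were not tested. Lefty2, at 0.89, was at -0.0106 without WT a, 2.06 without WT b and -0.0231 without both WT a and WT c, and the other named genes kept their sign. Over 18 alternatives the medians of 15 of the 24 lists kept their sign. Those of feeder fibroblast, mesendoderm, trophoblast, primitive endoderm, p53 target, stress, pluripotency, AT-hook and high mobility group genes did not. Only batches a and b hold both groups, and batch b has the fewer counts, which limits genes of low level most.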
